A study of Mus musculus with 16 samples.

Results

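The genes described here are 37 enzymes of nucleotide synthesis and of the pathways that feed it: 12 of de novo purine synthesis, 4 of de novo pyrimidine synthesis, 6 of deoxynucleotide and thymidylate synthesis, 5 of the folate cycle, 3 of serine synthesis and 7 of the pentose phosphate pathway. They were chosen by name, as enzymes of these pathways, but with earlier results of these data known. The counts called among them, set beside the shares over all genes, are therefore descriptive. Each was found once among the 55573 genes of the deposited count table, and all 37 were among the 13711 genes tested after a filter on low counts. They held between 0.312% and 0.487% of the counts of a library.

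The table holds RNA sequencing of OT1 cells, which are CD8 T cells of C57BL/6 mice whose transgenic T cell receptor recognises ovalbumin. A mix of T cells labelled Foxp3UP and Mock was given to mice carrying tumours, and the transferred cells were sorted after 5 days as viable CD8 cells by the surface markers CD45.1 and/or CD90.1. The titles name 4 groups with 4 libraries in each: Foxp3UP, for which MockUP served as the control here, and Foxp3DN, for which MockDN did. All 4 groups share the strain, the receptor, the transfer and the day. The labels leave unsaid what UP and DN mean, how Foxp3 was imposed, or which libraries came from which animals, so p-values measure the spread between these libraries, which may be technical in part.

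Proliferating T cells build purines and pyrimidines on phosphoribosyl pyrophosphate, which is made from the ribose phosphate of the pentose phosphate pathway. Serine gives carbon units to folate, in the cytosol and in mitochondria, and formyl- and methylene-tetrahydrofolate carry them into the purine ring and into thymidylate. Ribonucleotide reductase then turns ribonucleotides into the deoxynucleotides of DNA, an activity tied to S phase. Activated CD8 T cells are known to raise these pathways when they leave rest, and the transcription factors Myc and Atf4 are known to act on several of the genes.

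The difference between the Foxp3UP and the Foxp3DN effects described further on was called for 6 of the 37 genes, so the promoters of these 6 were the ones examined. Below, 4 are shown as the 250 bases before the RefSeq start (build GRCm38.p6, 5′ to 3′ on the gene's strand), each with a matched motif in capitals. The windows of the other 2, Ppat and Shmt1, overlap exons of coding genes and are not printed.
Gart (chr16:91646973-91647222, minus strand; capitals mark a CCAAT box): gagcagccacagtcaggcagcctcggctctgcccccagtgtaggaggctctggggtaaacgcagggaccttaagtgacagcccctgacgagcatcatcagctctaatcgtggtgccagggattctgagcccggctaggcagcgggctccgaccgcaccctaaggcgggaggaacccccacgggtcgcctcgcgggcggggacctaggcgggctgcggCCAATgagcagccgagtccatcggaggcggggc
Mthfd1 (chr12:76254982-76255231, plus strand; capitals mark a CCAAT box read on the other strand): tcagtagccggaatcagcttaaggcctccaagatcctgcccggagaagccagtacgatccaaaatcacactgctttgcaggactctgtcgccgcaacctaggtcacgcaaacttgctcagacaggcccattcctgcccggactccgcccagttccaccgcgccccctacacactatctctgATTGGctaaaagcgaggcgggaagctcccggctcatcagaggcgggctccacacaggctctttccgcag
Ctps (chr4:120570277-120570526, minus strand; capitals mark the palindrome bound by Nrf1): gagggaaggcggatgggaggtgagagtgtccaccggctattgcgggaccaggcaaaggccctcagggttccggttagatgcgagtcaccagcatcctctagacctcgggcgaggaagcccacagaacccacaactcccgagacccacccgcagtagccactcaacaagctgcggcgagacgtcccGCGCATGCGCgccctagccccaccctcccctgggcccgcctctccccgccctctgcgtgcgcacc
Shmt2 (chr10:127522445-127522694, minus strand; capitals mark the same palindrome): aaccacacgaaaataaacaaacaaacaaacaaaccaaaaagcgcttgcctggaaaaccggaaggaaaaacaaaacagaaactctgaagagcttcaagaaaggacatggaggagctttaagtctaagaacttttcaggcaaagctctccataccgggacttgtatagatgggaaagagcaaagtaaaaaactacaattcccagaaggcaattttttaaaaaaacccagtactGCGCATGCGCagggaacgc
In these windows the matched motifs begin 33 bases before the start of Gart, 69 before that of Mthfd1, 65 before that of Ctps and 19 before that of Shmt2. RefSeq windows were found for 35 of the 37 genes, 40 windows in all. A gene counts below as a match if any of its windows matched, whereas the share over all promoters counts single windows. The shares are thus in unlike units, and a gene with 2 windows has more room to match. On both strands, and with no overlap between the motifs searched in these 4 windows, CCAAT was present in 15 of the 35 (42.86%) and in 33.85% of all 32851 promoter windows of the same length. The Nrf1 palindrome, GCGCA joined to its reverse complement, was added to the search after the sequences had been read and was present in 2 of the 35 (5.71%), Ctps and Shmt2, and in 0.78% of all windows. The E-box CACGTG, the letters bound by Myc, was present in 6 of the 35 (17.14%) and in 6.02% of all windows. It was in none of the 6 genes called in the difference, which are too few to show a lack. TGATGNAA, the core of the Atf4 element, was present in 1 of the 35 and in 3.45% of all windows. These are letter matches, not measured binding.

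The libraries held 9389477 to 13226590 counts. The SE of a log2 fold change in Foxp3UP was 0.11 at the median of the 37 genes, against 0.18 over all genes tested. The transcript of Foxp3 stood at 15.2 to 29.5 CPM (counts scaled to a common library size) in Foxp3UP and at 11.5 to 13.7 CPM in MockUP, a log2 difference of 0.92 ± 0.17 SE with an edgeR adjusted p of 0.00233. In Foxp3DN it stood at 10.1 to 10.4 CPM and in MockDN at 11.0 to 14.6 CPM. Every Foxp3DN library was thus below every MockDN library, as for 82 of all 13711 genes, but the test was not passed (-0.33 ± 0.17 SE). The difference of the 2 effects was 1.25 ± 0.24 SE (edgeR adjusted p = 0.0144). All 8 CD8 T cell markers were expressed, summing to 3871 to 7298 CPM in each library, the CD4 gene stayed at or below 0.759 CPM, and the markers of B cells, NK cells, granulocytes and fibroblasts each summed to at most 8.14 CPM. Of markers of other cells, 8 of 9 for monocytes and macrophages passed the filter, with summed levels of 53.0 to 74.1 CPM in Foxp3UP, 36.4 to 54.5 in MockUP, 38.1 to 60.9 in Foxp3DN and 37.8 to 46.5 in MockDN, and none of the 9 was at 0 in every library. All 4 melanocytic markers passed, with sums of 51.2 to 109.0 CPM in Foxp3UP, 48.0 to 73.3 in MockUP, 27.4 to 60.5 in Foxp3DN and 18.3 to 55.9 in MockDN. The epithelial markers summed to 7.49 to 16.8 CPM in Foxp3UP, 3.61 to 9.30 in MockUP, 4.33 to 7.98 in Foxp3DN and 5.55 to 7.46 in MockDN. The highest sums of these 3 lists were in Foxp3UP, with overlap between Foxp3UP and MockUP. The dendritic markers summed to 14.5 to 26.9 CPM and the endothelial markers to 47.6 to 68.4 CPM over all libraries. Siglech, 1 of 4 dendritic markers, Cdh5, 1 of 3 endothelial markers, and Ms4a1, 1 of 4 B cell markers, were at 0 in every library. The other markers of these lists had counts in at least 1 library. The part of these other cells in the results below was not tested. MockUP 2 stood apart from the other libraries, at -52.8 on the second principal component. The correlation of level with gene length was 0.415 in that library and 0.300 to 0.355 in the other 15. The part of gene length in the results was not tested. Fits without MockUP 2 are given with the results below.

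In Foxp3UP, 13 of the 37 genes fell against MockUP and none rose, while 24 did not pass the test (edgeR, Benjamini-Hochberg over all genes, adjusted p under 0.05). Over all genes tested, 12.1% were called in either direction, 5.99% as lower and 6.08% as higher. The 13 were all 4 genes of pyrimidine synthesis, 6 of the 12 of purine synthesis and 3 of the 5 of the folate cycle. No gene of deoxynucleotide synthesis, serine synthesis or the pentose phosphate pathway was called. The median log2 fold change of the 37 was -0.22, against 0.00 over all genes tested, and 29 of the 37 lay below zero. Coordinates are those of the deposited table (mm10). All levels are in CPM scaled by TMM, with means ± SD over the 4 libraries of a group, and in bulk RNA fewer cells expressing a gene and less RNA per cell cannot be told apart. Same-numbered libraries deviated together, and with the replicate number as a block 20 of the 37 were called (19 lower, 1 higher), where 25.3% of all genes were called. When the 8 libraries compared were fitted alone, 8 were called, and 5.05% of all genes. DESeq2 called 16 (15 lower, 1 higher) and 14.9% of all genes, and without MockUP 2 edgeR called 17 and 13.1%. Scaled by library totals in place of TMM, 15 of the 37 were called, all lower, while the split over all genes moved from 833 higher and 821 lower to 646 higher and 1081 lower.

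**Figure D1:**
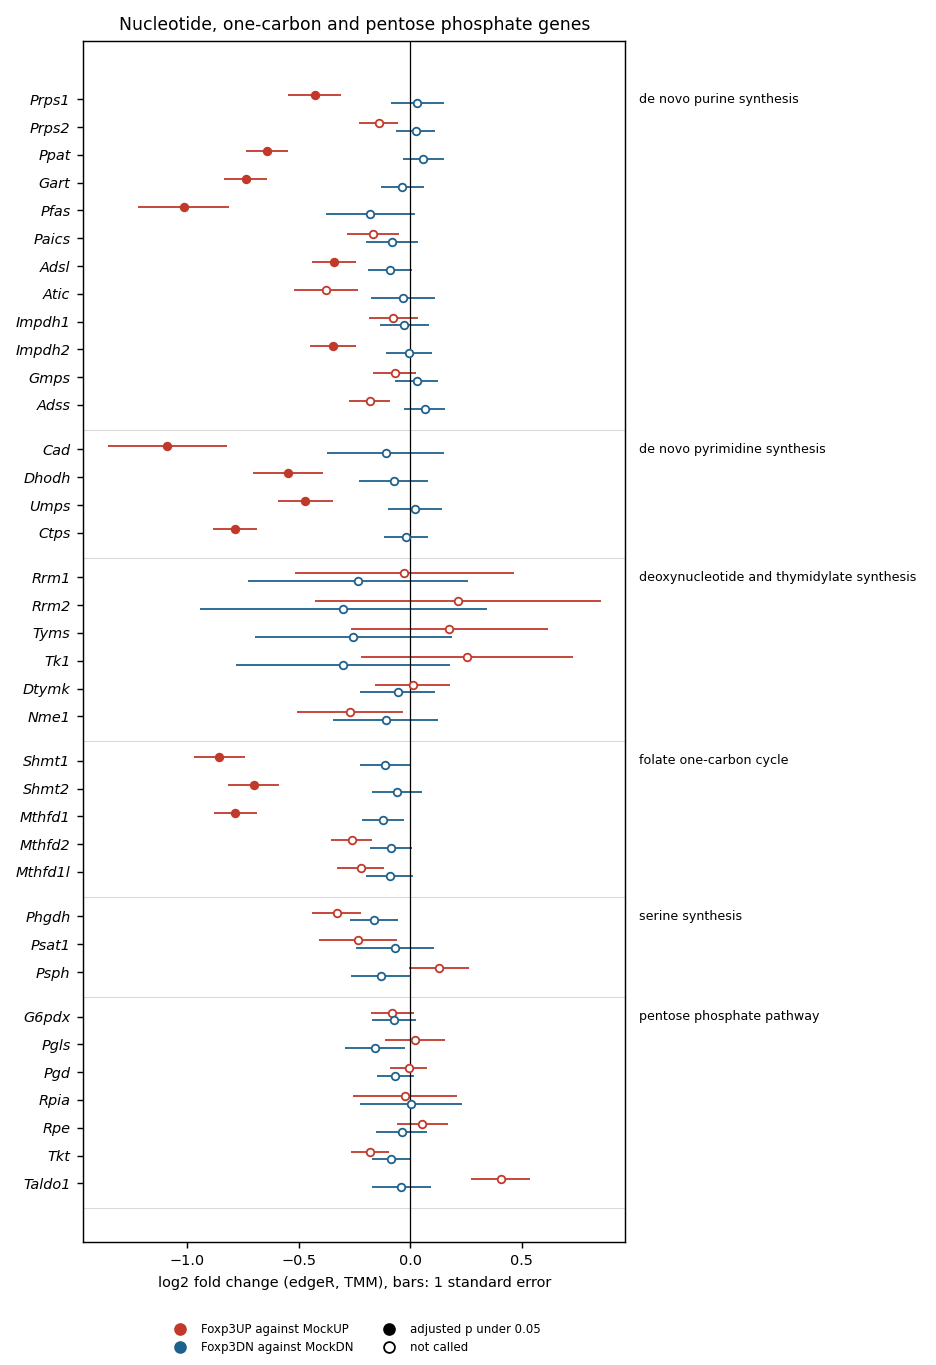
Log2 fold changes of the 37 genes (x axis) for Foxp3UP against MockUP and for Foxp3DN against MockDN, with genes on the y axis ordered by sub-pathway, red for the first and blue for the second, bars of 1 SE and called values in filled symbols. The pyrimidine genes and Shmt1, Shmt2 and Mthfd1 lie between -0.47 and -1.09 in Foxp3UP, and all 37 lie between -0.30 and 0.06 in Foxp3DN.

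Purine synthesis held the most called genes. Of its 12 enzymes, Prps1, Ppat, Gart, Pfas, Adsl and Impdh2 fell, all 12 lay below zero, and the median log2 fold change was -0.35. Ppat (ENSMUSG00000029246, chr5:76913249-76951578, minus strand), the amidotransferase that commits phosphoribosyl pyrophosphate to purines, stood at 52.6, 48.3, 39.2 and 44.2 CPM in Foxp3UP 1 to 4 and at 70.1, 72.2, 75.9 and 69.7 CPM in MockUP 1 to 4. Every Foxp3UP library was thus below every MockUP library, which held for 7.29% of all genes. In Foxp3DN the level was 70.8, 69.4, 70.6 and 70.8 CPM and in MockDN 66.5, 74.7, 62.2 and 67.1 CPM, so those groups overlapped and sat near MockUP. Its mean was 46.1 ± 5.73 CPM against 72.0 ± 2.82 CPM, 1.56-fold lower (log2 fold change -0.64 ± 0.09 SE, edgeR adjusted p = 0.000443).

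Gart (ENSMUSG00000022962, chr16:91621186-91646952, minus strand), which carries several activities of the purine pathway, among them a formyl transfer from folate, gave 98.2, 89.7, 81.9 and 96.5 CPM in Foxp3UP 1 to 4 and 145, 157, 158 and 152 CPM in MockUP 1 to 4. The groups did not overlap, and the highest Foxp3UP library was Foxp3UP 1. Foxp3DN held 117, 136, 157 and 136 CPM and MockDN 125, 142, 153 and 141 CPM, which overlapped. Gart was 1.67-fold lower in Foxp3UP (log2 fold change -0.74 ± 0.10 SE, edgeR adjusted p = 0.000171). Of its exonic bases, 19.7% are shared with the antisense gene Gm15964, and without knowing whether counting used strand the reads of both cannot be told apart.

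Pfas (ENSMUSG00000020899, chr11:68985697-69008460, minus strand), which adds a nitrogen from glutamine after the formyl transfer by Gart, was the least abundant of the purine genes per length of transcript. It stood at 7.75, 9.89, 8.22 and 9.44 CPM in Foxp3UP 1 to 4 and at 14.2, 28.9, 12.9 and 15.4 CPM in MockUP 1 to 4. No libraries overlapped, but MockUP 2 was far above the other 3 controls. Its mean was 8.83 ± 1.01 against 17.9 ± 7.46 CPM, 2.02-fold lower (log2 fold change -1.02 ± 0.20 SE, edgeR adjusted p = 0.00388). Without MockUP 2 it still fell, by 0.68 on the log2 scale. The Foxp3DN libraries held 10.9 to 12.8 CPM and the MockDN libraries 12.4 to 15.0 CPM.

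The remaining purine calls were smaller. Prps1 (ENSMUSG00000031432, chrX:140456613-140476140, plus strand), which makes phosphoribosyl pyrophosphate, stood at 93.5, 92.9, 91.6 and 100.2 CPM in Foxp3UP 1 to 4 and at 118, 96.0, 143 and 152 CPM in MockUP 1 to 4. The Foxp3UP libraries were close together, and MockUP 2 lay within their range. Prps1 fell 1.35-fold (log2 fold change -0.43 ± 0.12 SE, edgeR adjusted p = 0.0261), and its count is uncertain where reads could not be told from those of its near copy Prps1l3. Adsl (ENSMUSG00000022407, chr15:80948490-80970946, plus strand), adenylosuccinate lyase, which acts once on the way to inosinate and again on the way to adenylate, stood at 113, 107, 113 and 119 CPM in Foxp3UP 1 to 4 and at 141, 123, 149 and 160.0 CPM in MockUP 1 to 4. The groups touched without overlap, at Foxp3UP 4 and MockUP 2. Adsl fell 1.27-fold (log2 fold change -0.34 ± 0.10 SE, edgeR adjusted p = 0.0319). Impdh2 (ENSMUSG00000062867, chr9:108560286-108565584, plus strand), the dehydrogenase that turns inosinate towards guanine nucleotides, stood at 137, 113, 98.0 and 118 CPM in Foxp3UP 1 to 4 and at 159, 127, 150.1 and 157 CPM in MockUP 1 to 4. Foxp3UP 1 was above MockUP 2, so the groups overlapped. Impdh2 fell 1.27-fold (log2 fold change -0.35 ± 0.10 SE, edgeR adjusted p = 0.0345). These 3 calls depended on single libraries: Prps1 lost its call without Foxp3UP 1, 2 or 3 or MockUP 3 or 4 (edgeR adjusted p 0.0548 to 0.0759), Adsl without any 1 Foxp3UP library or MockUP 3 or 4 (0.0512 to 0.0887), and Impdh2 without Foxp3UP 2, 3 or 4 or MockUP 1, 3 or 4 (0.0683 to 0.117). The calls of Ppat, Gart and Pfas held in each of these leave-outs.

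The other 6 purine genes did not pass the test. Atic, which closes the ring of inosinate with a formyl group from folate, stood at 26.2 ± 1.93 CPM in Foxp3UP, where MockUP stood at 34.1 ± 8.09 CPM (log2 fold change -0.38 ± 0.14 SE, edgeR adjusted p = 0.0977). It passed with the replicate block (edgeR adjusted p = 0.0452) and without MockUP 2 (0.00735). Adss, the synthetase of the adenylate branch, had no overlap between its libraries, at 158 to 169 CPM in Foxp3UP and 169 to 203 CPM in MockUP, but missed the threshold (log2 fold change -0.18, edgeR adjusted p = 0.206). Paics, which works directly after Ppat, Gart and Pfas, stood at 174 ± 26.0 against 195 ± 24.5 CPM (log2 fold change -0.17 ± 0.12 SE). Ppat and Paics are divergent neighbours on chromosome 5 whose exons share 272 bases on opposite strands, 6.15% of those of Ppat. Prps2, Impdh1 and Gmps had log2 fold changes of -0.14, -0.08 and -0.07. For 2 steps the cells expressed 2 isozymes, Prps1 with Prps2 and Impdh1 with Impdh2, of which 1 was called and the other not in each case. Whether the isozymes differed was not tested.

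All 4 pyrimidine genes fell in Foxp3UP, with a median log2 fold change of -0.67. Cad (ENSMUSG00000013629, chr5:31054780-31078479, plus strand), the fused enzyme of the first steps of the pathway, stood at 36.0, 44.3, 31.7 and 30.8 CPM in Foxp3UP 1 to 4 and at 59.9, 142, 45.1 and 56.9 CPM in MockUP 1 to 4. The lowest control, MockUP 3, was just above the highest Foxp3UP library, and MockUP 2 was far above all others. Cad fell 2.13-fold (log2 fold change -1.09 ± 0.27 SE, edgeR adjusted p = 0.0138), and without MockUP 2 its log2 fold change was -0.60 (0.0128 as edgeR adjusted p). In Foxp3DN it held 46.1 to 61.9 CPM and in MockDN 54.5 to 72.8 CPM.

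Dhodh (ENSMUSG00000031730, chr8:109591343-109608673, minus strand), the mitochondrial enzyme that makes orotate, stood at 20.9, 20.2, 22.3 and 25.9 CPM in Foxp3UP 1 to 4 and at 25.4, 28.5, 38.2 and 38.7 CPM in MockUP 1 to 4. Foxp3UP 4 was above MockUP 1, so the groups overlapped. Dhodh fell 1.46-fold (log2 fold change -0.55 ± 0.16 SE, edgeR adjusted p = 0.0296). Umps (ENSMUSG00000022814, chr16:33954782-33967038, minus strand), which turns orotate into uridylate, stood at 100.3, 114, 112 and 123 CPM in Foxp3UP 1 to 4 and at 134, 141, 170.4 and 177 CPM in MockUP 1 to 4. Every Foxp3UP library was below every control, and replicates 3 and 4 were the higher ones of MockUP. Umps fell 1.39-fold (log2 fold change -0.47 ± 0.12 SE, edgeR adjusted p = 0.0186), and 6.11% of its exonic bases lie under the antisense gene Gm15829. Dhodh lost its call without Foxp3UP 1, 2 or 3 or MockUP 3 or 4 (edgeR adjusted p 0.0635 to 0.0843), and Umps without Foxp3UP 1 (0.0552).

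Ctps (ENSMUSG00000028633, chr4:120539868-120570276, minus strand), which aminates UTP to CTP at the end of the pathway, had the smallest adjusted p of the 4. It stood at 59.1, 60.5, 59.9 and 68.6 CPM in Foxp3UP 1 to 4 and at 89.7, 111, 113 and 114 CPM in MockUP 1 to 4. Even the lowest control, MockUP 1, was well above the highest Foxp3UP library, Foxp3UP 4. Foxp3DN held 90.6, 92.4, 106 and 100.4 CPM and MockDN 90.0, 92.5, 106 and 107 CPM, and their ranges overlapped. Its mean of 62.0 ± 4.40 CPM was 1.73-fold below the control mean of 107 ± 11.6 CPM (log2 fold change -0.79 ± 0.10 SE, edgeR adjusted p = 0.000114). This call held in each leave-out of 1 library.

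None of the 6 genes of deoxynucleotide and thymidylate synthesis was called in Foxp3UP, by edgeR or by DESeq2, and none had an unadjusted p under 0.05. Their median log2 fold change was 0.09. Rrm1 and Rrm2, the large and small subunits of ribonucleotide reductase, differed far more between libraries than between groups. Rrm2 stood at 342, 229, 95.9 and 102 CPM in Foxp3UP 1 to 4 and at 313, 172, 89.4 and 89.5 CPM in MockUP 1 to 4 (log2 fold change 0.21 ± 0.64 SE), and Rrm1 at 300.1, 208, 93.3 and 118 and 315, 206, 96.2 and 116 CPM (-0.03 ± 0.49 SE). In both groups replicates 1 and 2 were the high ones, and same-numbered libraries of the groups followed each other. Tyms, thymidylate synthase, had a log2 fold change of 0.18 ± 0.44 SE and Tk1, cytosolic thymidine kinase, one of 0.25 ± 0.48 SE. The SEs of Rrm1, Rrm2, Tyms and Tk1, 0.44 to 0.64, are several times the 0.11 typical of the 37. With the replicate block the SEs were 0.08 to 0.12 and the log2 fold changes -0.02 for Rrm1, 0.21 for Rrm2, 0.20 for Tyms and 0.27 for Tk1, and none of the 4 was called (edgeR adjusted p = 0.883, 0.102, 0.237 and 0.0943).

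Dtymk and Nme1, which phosphorylate the products onward, lacked that pattern. Dtymk, thymidylate kinase, stood at 49.8 ± 8.44 and 49.5 ± 12.6 CPM (log2 fold change 0.01 ± 0.17 SE, or -0.16 without MockUP 2). Nme1 (ENSMUSG00000037601, chr11:93956979-93968521, minus strand), a nucleoside diphosphate kinase, stood at 22.1, 19.3, 24.8 and 25.6 CPM in Foxp3UP 1 to 4 and at 28.1, 12.1, 32.6 and 38.1 CPM in MockUP 1 to 4. MockUP 2 was below every Foxp3UP library and the other 3 controls were above them. Its log2 fold change was -0.27 ± 0.24 SE (edgeR adjusted p = 0.505), and without MockUP 2 it was -0.53 (0.0218).

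In the folate cycle, the 2 serine hydroxymethyltransferases and Mthfd1 fell. Shmt1 (ENSMUSG00000020534, chr11:60788104-60811718, minus strand), the cytosolic enzyme, stood at 50.6, 47.6, 36.0 and 45.1 CPM in Foxp3UP 1 to 4 and at 74.5, 76.4, 77.7 and 96.3 CPM in MockUP 1 to 4. The groups were far apart, and MockUP 4 was the highest control. Foxp3DN held 62.1, 60.7, 71.4 and 65.2 CPM and MockDN 63.7, 69.4, 78.5 and 69.0 CPM, with overlap. Shmt1 was 1.81-fold lower in Foxp3UP (log2 fold change -0.86 ± 0.11 SE, edgeR adjusted p = 0.000218), and 4.74% of its exonic bases are shared with Smcr8 on the other strand.

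Shmt2 (ENSMUSG00000025403, chr10:127517123-127522444, minus strand), the mitochondrial enzyme that starts the export of formate to the cytosol, stood at 131, 137, 122 and 145 CPM in Foxp3UP 1 to 4 and at 188, 198, 229 and 255 CPM in MockUP 1 to 4. All Foxp3UP libraries were below all controls, which were highest in replicates 3 and 4. Foxp3DN held 185, 180.3, 233 and 198 CPM and MockDN 189.9, 188, 237 and 215 CPM. The fall in Foxp3UP was 1.63-fold (log2 fold change -0.70 ± 0.11 SE, edgeR adjusted p = 0.000963). Mthfd1 (ENSMUSG00000021048, chr12:76255298-76319803, plus strand), the cytosolic enzyme that joins formate to folate and interconverts the forms used for purines and thymidylate, stood at 98.8, 96.1, 82.9 and 87.0 CPM in Foxp3UP 1 to 4 and at 149, 174, 154 and 152 CPM in MockUP 1 to 4. These groups did not overlap. Foxp3DN held 129, 134, 162 and 135 CPM and MockDN 140.4, 156, 169 and 143 CPM, which did. Mthfd1 had the smallest adjusted p of the 37 genes, 0.000107 by edgeR, with a 1.72-fold fall (log2 fold change -0.78 ± 0.10 SE).

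The mitochondrial partners of Shmt2 did not pass the test. Mthfd2, the dehydrogenase and cyclohydrolase, stood at 106 ± 7.48 against 127 ± 13.7 CPM (log2 fold change -0.26 ± 0.09 SE, edgeR adjusted p = 0.0745), and Mthfd1l, the formyl-folate synthetase, at 79.0 ± 10.1 against 92.2 ± 10.8 CPM (-0.22 ± 0.11 SE, 0.183). With the replicate block both passed (edgeR adjusted p = 0.0235 and 0.0302), which makes 5 of 5 in the folate cycle, where 25.3% of all genes were called. Mthfd2 also passed without MockUP 2 (edgeR adjusted p = 0.0124). The calls of Shmt1, Shmt2 and Mthfd1 held in each leave-out of 1 library.

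**Figure D2:**
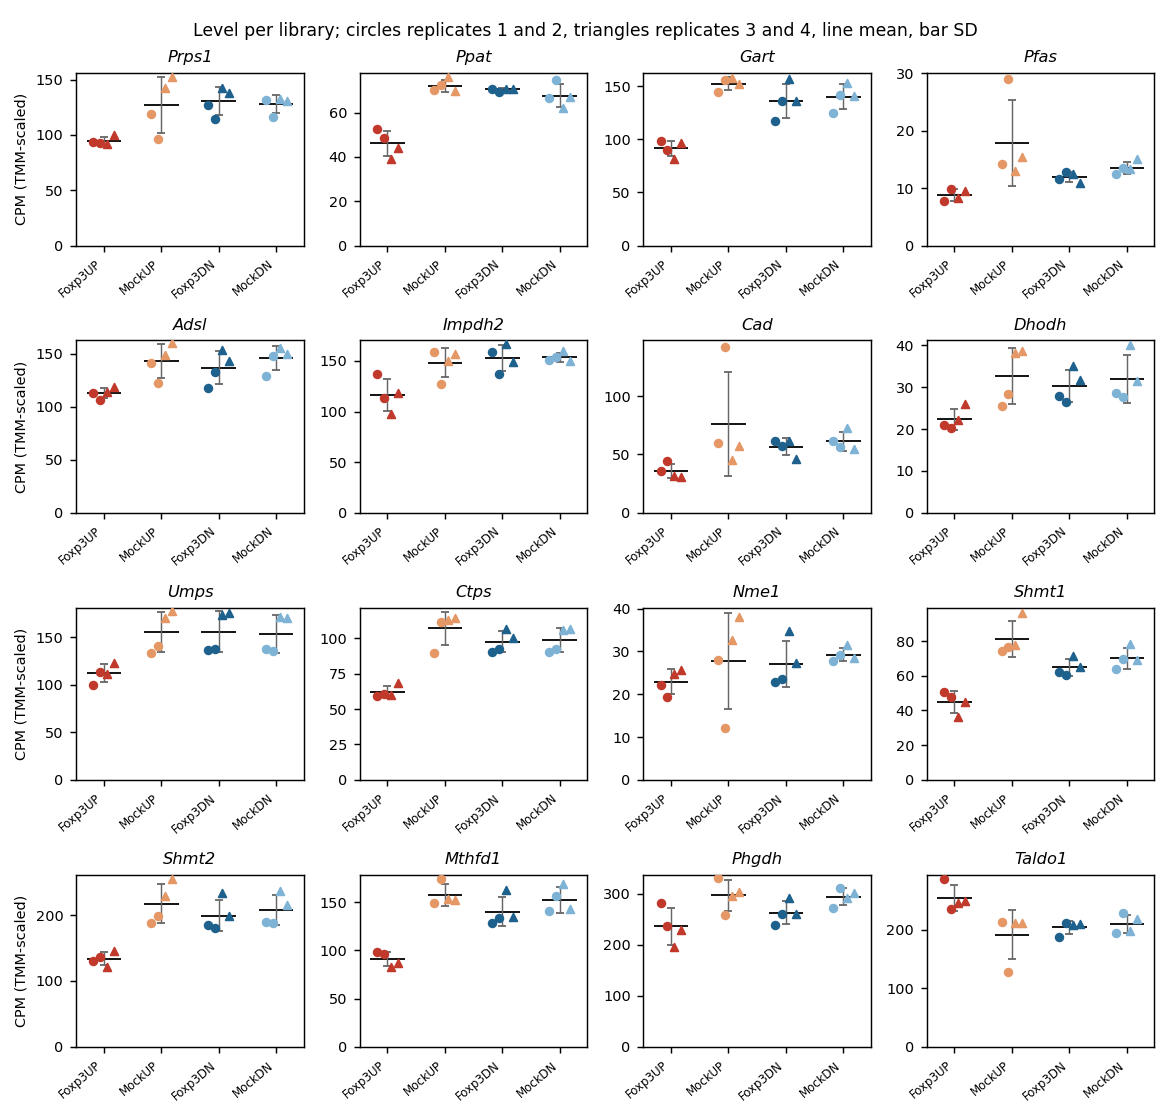
TMM-scaled CPM (y axis) of the 16 genes described library by library, 1 panel a gene, with the 4 groups on the x axis, circles for replicates 1 and 2, triangles for replicates 3 and 4, a line for the mean and a bar for the SD. Foxp3UP lies below the other groups for Ppat, Gart, Ctps, Shmt1, Shmt2 and Mthfd1, and above MockUP for Taldo1.

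Serine synthesis was not called in Foxp3UP by edgeR, with 1 of its 3 genes at an unadjusted p under 0.05 and 1 called by DESeq2, Phgdh in both cases. Phgdh (ENSMUSG00000053398, chr3:98313170-98339990, minus strand), the dehydrogenase that takes phosphoglycerate out of glycolysis, stood at 283, 237, 195 and 228 CPM in Foxp3UP 1 to 4 and at 330.3, 258, 295 and 303 CPM in MockUP 1 to 4. Foxp3UP 1 lay above MockUP 2, and the rest of Foxp3UP was below MockUP. Its log2 fold change of -0.33 ± 0.11 SE narrowly missed the threshold (edgeR adjusted p = 0.0577), and it passed with the replicate block (0.00737), without Foxp3UP 1 (0.0213) and without MockUP 2 (0.0224). Psat1, the transaminase that follows, stood at 73.7 ± 21.9 and 86.8 ± 15.9 CPM (log2 fold change -0.24 ± 0.17 SE) and passed with the block (edgeR adjusted p = 0.0407). Psph, the final phosphatase, had a log2 fold change of 0.13 ± 0.14 SE, which turned to -0.01 without MockUP 2.

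The pentose phosphate pathway had a median log2 fold change of -0.01 and no call by edgeR, with 2 of 7 genes at an unadjusted p under 0.05, Taldo1 and Tkt, and 1 called by DESeq2, Taldo1. The 3 oxidative enzymes were nearly level between Foxp3UP and MockUP: G6pdx, which commits glucose 6-phosphate, at 72.1 and 76.2 CPM, the lactonase Pgls at 76.1 and 75.0 CPM, and Pgd at 112 and 113 CPM. Rpia and Rpe, which interconvert the pentose phosphates, had log2 fold changes of -0.02 and 0.05, and that of Rpe was -0.04 without MockUP 2. Rpia rests on only 22 to 51 counts a library. Pgls shares 20.6% of its exonic bases with Fam129c, Rpe 17.9% with Kansl1l and G6pdx 13.6% with Ikbkg. The sign of Pgls turned without MockUP 2, from 0.02 to -0.13.

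The transketolase and transaldolase of the non-oxidative branch lay on opposite sides of zero. Tkt stood at 247 ± 30.2 against 281 ± 11.6 CPM (log2 fold change -0.18 ± 0.09 SE, edgeR adjusted p = 0.183, or 0.0336 with the replicate block). Taldo1 (ENSMUSG00000025503, chr7:141392199-141402968, plus strand) stood at 286, 235, 244 and 248 CPM in Foxp3UP 1 to 4 and at 213, 128, 212 and 212 CPM in MockUP 1 to 4. It was the only gene of the 37 with every Foxp3UP library above every MockUP library, an arrangement found in 8.61% of all genes, and MockUP 2 was far below the other controls. Its log2 fold change of 0.41 ± 0.13 SE just missed the threshold (edgeR adjusted p = 0.0535) and passed with the block (0.00527) and without MockUP 1 (0.0391). Without MockUP 2 the log2 fold change was 0.25 (0.0636 as edgeR adjusted p). Foxp3DN and MockDN held 187 to 212 and 195 to 228 CPM.

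In Foxp3DN against MockDN none of the 37 genes was called by edgeR or by DESeq2, and none had an unadjusted p under 0.05. Over all genes 0.00729% were called, a single gene. The 37 log2 fold changes ran from -0.30 to 0.06, with a median of -0.07, and 30 lay below zero. The medians of the sub-pathways were -0.02 for purines, -0.05 for pyrimidines, -0.09 for the folate cycle and -0.25 for deoxynucleotides. For the genes with the clearest falls in Foxp3UP the values were 0.06 ± 0.09 SE for Ppat, -0.04 ± 0.10 for Gart, -0.02 ± 0.10 for Ctps and -0.12 ± 0.10 for Mthfd1. The lowest values, -0.30 ± 0.64 SE for Rrm2 and -0.30 ± 0.48 for Tk1, belonged to the genes with the widest spread between libraries.

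The Foxp3UP effect minus the Foxp3DN effect, tested directly as an interaction, was called for 6 of the 37 genes, all lower, where 1.83% of all genes were called, 0.868% as lower and 0.963% as higher. DESeq2 called the same 6, and 4.86% of all genes. They were Ppat and Gart of purine synthesis, Ctps of pyrimidine synthesis, and Shmt1, Shmt2 and Mthfd1 of the folate cycle. Among these 6, Ctps differed most, by -0.77 ± 0.14 SE on the log2 scale (edgeR adjusted p = 0.00897), followed by Shmt1 at -0.74 ± 0.16 SE (0.0263). Gart differed by -0.70 ± 0.14 SE (edgeR adjusted p = 0.0132), Ppat by -0.70 ± 0.13 SE (0.0113), Mthfd1 by -0.66 ± 0.14 SE (0.0202) and Shmt2 by -0.64 ± 0.16 SE (0.0490). For each of these genes the fall in Foxp3UP was larger than the Foxp3DN difference, though not every call held with 1 library left out, as given below. The differences of Cad (-0.98 ± 0.37 SE, edgeR adjusted p = 0.199) and Pfas (-0.84 ± 0.29 SE, 0.146) did not pass. Without MockUP 2 they did not pass either, at -0.48 ± 0.20 SE for Cad (edgeR adjusted p = 0.201) and -0.50 ± 0.17 SE for Pfas (0.121), and both were smaller in size.

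With the replicate block, 13 of the 37 differences were called, and 12.7% of all genes. These were the same 6 plus Prps1, Pfas, Cad, Dhodh and Umps as lower (edgeR adjusted p = 0.0384, 0.0258, 0.0196, 0.0331 and 0.00360) and Tk1 and Taldo1 as higher (0.0420 and 0.0357). Without MockUP 2 the call of Prps1 was added to the 6, and 2.67% of all genes were called. Leaving out 1 library, the calls of Ppat, Gart and Ctps held each time. Mthfd1 lost its call without Foxp3UP 3, Foxp3DN 3, MockDN 1 or MockDN 4 (edgeR adjusted p 0.0531 to 0.0597). Shmt1 lost it without Foxp3UP 3 or 4, MockUP 4, Foxp3DN 3 or 4, or MockDN 1, 2 or 4 (0.0506 to 0.0704). Shmt2, the closest to the threshold, lost it without any 1 Foxp3UP library, MockUP 3 or 4, Foxp3DN 1, 3 or 4, or MockDN 1, 2 or 4 (0.0576 to 0.109).

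Between the control groups no difference was detected. In MockUP against MockDN none of the 37 was called by edgeR or DESeq2 and none had an unadjusted p under 0.05, where 0.00729% of all genes were called. The log2 differences ran from -0.13 to 0.40, with a median of 0.05. The highest was that of Pfas, at 0.40 ± 0.20 SE, and Cad stood at 0.31 ± 0.26 SE, both with their high MockUP 2 library included. Without it they were 0.06 ± 0.12 SE for Pfas and -0.19 ± 0.15 SE for Cad. The effects in UP and DN and this comparison share their control libraries and are not independent of each other.

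Replicates 1 and 2 of every group carry lower sample numbers in the titles than replicates 3 and 4, so both sets were also compared. In most of the deoxynucleotide genes the sets were far apart. Rrm2 averaged 225.6 CPM in replicates 1 and 2 of the 4 groups and 75.1 CPM in replicates 3 and 4, Rrm1 216.6 and 93.5 CPM, Tk1 65.1 and 31.1 CPM, and Tyms 55.1 and 27.5 CPM. All of these 4 were higher in replicates 1 and 2 of each group. The median log2 difference between the sets was 1.02 for deoxynucleotide genes, -0.04 for purines, -0.23 for pyrimidines, -0.05 for the folate cycle, 0.02 for serine synthesis and 0.04 for the pentose phosphate pathway. A list of 31 proliferation genes moved the same way, its mean log2 deviation in Foxp3UP being 0.97 in replicates 1 and 2 and -0.31 in replicates 3 and 4, and in MockUP 0.78 and -0.46. The part of proliferation in the levels of Rrm1, Rrm2, Tyms and Tk1 was not tested.

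Library by library, the mean of the purine, pyrimidine and folate genes was low in every Foxp3UP library. The mean log2 deviation of the pyrimidine genes from their average over all 16 libraries was -0.53 to -0.38 in Foxp3UP, -0.02 to 0.42 in MockUP, 0.00 to 0.26 in Foxp3DN and 0.00 to 0.36 in MockDN. For the folate cycle it was -0.53 to -0.24 in Foxp3UP, 0.16 to 0.29 in MockUP, -0.05 to 0.16 in Foxp3DN and 0.05 to 0.25 in MockDN. For purines it was -0.36 to -0.17 in Foxp3UP and -0.02 to 0.18 over the other 3 groups. Foxp3UP thus stood apart from all 12 other libraries in these 3 sub-pathways, whereas in deoxynucleotide genes it ran from -0.26 to 0.81 and overlapped every group.

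**Figure D3:**
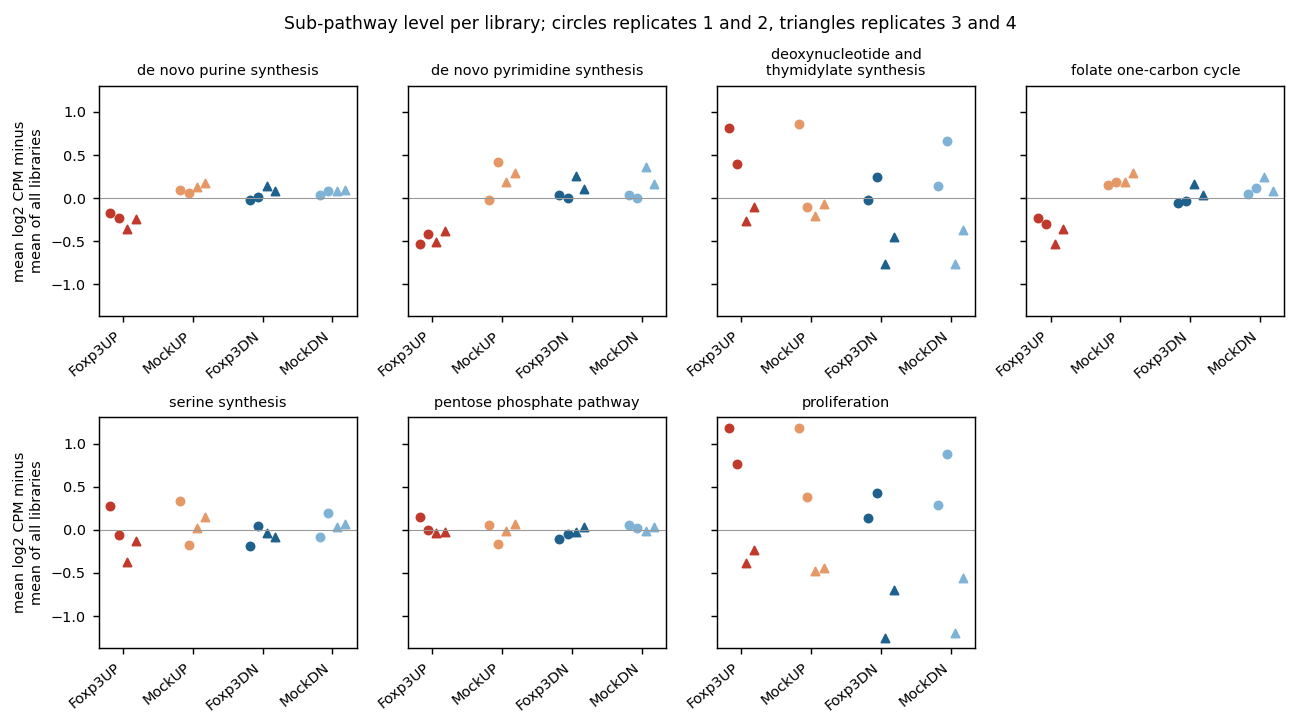
Mean log2 deviation of each sub-pathway from its average over all 16 libraries (y axis) for each library, with the 4 groups on the x axis, circles for replicates 1 and 2, triangles for replicates 3 and 4, and the proliferation list in a panel of its own. Purine, pyrimidine and folate genes lie below zero in all 4 Foxp3UP libraries, while deoxynucleotide genes run from -0.77 to 0.86 over the libraries.

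With both sets as terms of a single fit over all libraries, a test added after the values were seen, 10 of the 37 genes were called within replicates 1 and 2 (9 lower, 1 higher) and 14 within replicates 3 and 4 (all lower), where 9.92% and 9.14% of all genes were called. Ppat, Gart, Umps, Ctps, Shmt1, Shmt2 and Mthfd1 were lower in both. Cad and Pfas were lower in replicates 1 and 2, the set that holds MockUP 2, at log2 fold changes of -1.33 (edgeR adjusted p = 0.0164) and -1.29 (0.0119), and were not called in replicates 3 and 4, at -0.71 (0.167) and -0.68 (0.145). Atic, Mthfd2 and Phgdh were called within replicates 3 and 4, at -0.60, -0.40 and -0.50, and Taldo1 within replicates 1 and 2, at 0.61. The difference between the sets was called for none of the 13711 genes by edgeR (0.00%), and 2 of the 37 had an unadjusted p under 0.05, so the sets were not shown to differ. Of the 37 set differences 31 lay below zero, with a median of -0.21. The median log2 fold change of the 37 was -0.09 within replicates 1 and 2 and -0.34 within replicates 3 and 4. When each set was fitted alone, with few residual degrees of freedom, replicates 1 and 2 gave no call among the 37 (0.221% of all genes) and replicates 3 and 4 gave 21 (22.2%). The difference of the effects gave 0 calls (0.0143%) and 16 (12.4%) in the same fits.

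Compared per length, as RPKM (CPM divided by exonic length in kilobases) over all 16 libraries, the 37 genes spanned a wide range of levels. Phgdh was highest at 109.6 RPKM, followed by Taldo1 at 98.7 and Impdh1 at 74.3 RPKM. Rpia was lowest at 0.580 RPKM, then Pfas at 1.64, Atic at 3.90 and Dhodh at 4.64 RPKM. Genes that fell in Foxp3UP lay from 1.64 RPKM (Pfas) to 60.9 RPKM (Shmt2), so neither the strongest nor the weakest genes alone were called. Shmt2 stood at 60.9 RPKM and its cytosolic counterpart Shmt1 at 16.8 RPKM. In guanine synthesis Impdh1 stood at 74.3 and Impdh2 at 46.4 RPKM, and among phosphoribosyl pyrophosphate synthetases Prps1 stood at 60.2 and Prps2 at 16.1 RPKM.

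Genes next to these pathways gave a mixed picture. Of 91 genes of salvage, nucleotide breakdown, the wider folate, glycine and methionine cycles and ribose metabolism, 77 were tested, and in Foxp3UP 10 fell, 3 rose and 64 did not pass, with a median log2 fold change of 0.04. Over all genes 12.1% were called, 5.99% as lower and 6.08% as higher. With the replicate block 29 of the 77 were called, and 25.3% of all genes. Among the 8 libraries compared alone 6 were called, and 5.05% of all genes. In Foxp3DN none of the 77 was called by edgeR or DESeq2, and 1 had an unadjusted p under 0.05.

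Of 31 genes of salvage and interconversion, 5 fell and 1 rose in Foxp3UP, where 12.1% of all genes were called. With the block 6 fell and 5 rose, where 25.3% were called. Adk, adenosine kinase, stood at 46.5 ± 2.48 against 65.4 ± 5.22 CPM (log2 fold change -0.49 ± 0.08 SE, edgeR adjusted p = 0.00140). Uck2, the uridine-cytidine kinase, stood at 85.3 ± 0.199 against 132 ± 9.88 CPM (-0.63 ± 0.11 SE, edgeR adjusted p = 0.00140), and Slc29a2, an equilibrative nucleoside transporter, at 3.52 ± 1.57 against 9.07 ± 2.84 CPM (-1.37 ± 0.33 SE, 0.0112). Cmpk2, a mitochondrial nucleotide kinase known as an interferon-stimulated gene, rose from 76.6 ± 11.1 to 108 ± 17.4 CPM (0.49 ± 0.13 SE, edgeR adjusted p = 0.0201). The call of Cmpk2 was lost without Foxp3UP 3 (0.0842) or MockUP 4 (0.0647). Adk was the only one of the 77 whose Foxp3UP and Foxp3DN effects differed by edgeR, by -0.57 ± 0.12 SE (edgeR adjusted p = 0.0213). That call was lost without Foxp3DN 3 or 4 or MockDN 1 or 4 (edgeR adjusted p 0.0507 to 0.0588). DESeq2 called 7 of the 77 in this difference and the block 12. Over all genes 1.83% were called by edgeR, 4.86% by DESeq2 and 12.7% with the block.

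Among 16 tested genes of nucleotide breakdown, 1 fell and 1 rose, and with the block 2 and 2. These counts are near the shares over all genes, 12.1% and 25.3%. Ampd2, an AMP deaminase, fell from 71.8 ± 16.0 to 50.2 ± 1.94 CPM (log2 fold change -0.52 ± 0.12 SE, edgeR adjusted p = 0.0113). Samhd1, which destroys deoxynucleotide triphosphates, rose from 711 ± 139 to 1004 ± 214 CPM (0.50 ± 0.14 SE, edgeR adjusted p = 0.0291), a call lost without Foxp3UP 3 or 4 or MockUP 1 or 4 (0.0625 to 0.106). Samhd1 is also abundant in myeloid cells, whose markers reached their highest sums in Foxp3UP, and their part in this value was not tested.

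In the wider folate, serine, glycine and methionine list 4 of 23 genes fell and 1 rose, where 12.1% of all genes were called. With the block 8 fell and 3 rose, where 25.3% were called. Slc19a1, the reduced folate carrier, stood at 46.0 ± 6.00 against 86.7 ± 18.8 CPM (log2 fold change -0.91 ± 0.17 SE, edgeR adjusted p = 0.00264). Fpgs, which adds the glutamate tail that keeps folate in the cell, fell as well (13.3 ± 2.58 against 22.2 ± 3.20 CPM, -0.74 ± 0.16 SE, edgeR adjusted p = 0.00731), and Ggh, the hydrolase that removes this tail, rose from 33.3 ± 8.23 to 54.3 ± 3.87 CPM (0.70 ± 0.15 SE, 0.00674). The transcripts of this carrier and of the enzyme for tail addition were thus lower and that for tail removal higher. None of the 23 genes was called in the difference of the effects by edgeR. Mtrr, methionine synthase reductase, fell from 41.8 ± 4.10 to 28.4 ± 1.32 CPM (-0.56 ± 0.11 SE, edgeR adjusted p = 0.00370). None of the 7 other enzymes of pentose phosphate and ribose metabolism was called by edgeR or DESeq2, and 2 had an unadjusted p under 0.05. All 7 lay above zero (median 0.25). The block called 3 of them higher, where 25.3% of all genes were called.

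**Figure D4:**
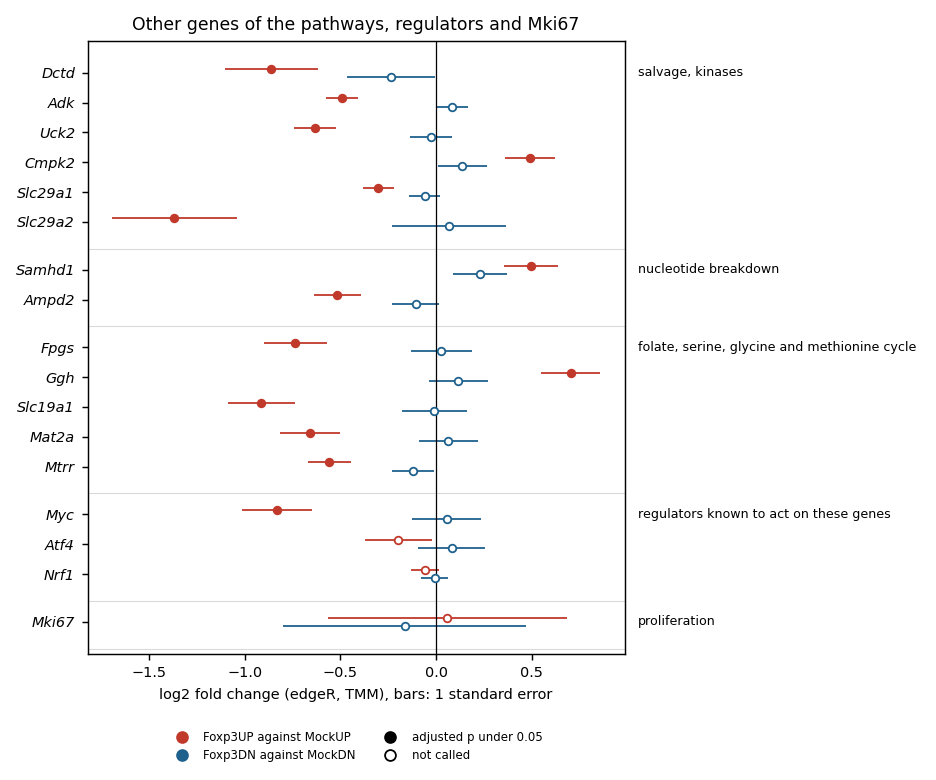
Log2 fold changes (x axis, bars 1 SE) of the neighbouring genes called in Foxp3UP, with Atf4, Nrf1 and Mki67 for reference, one gene a line on the y axis, red for Foxp3UP against MockUP, blue for Foxp3DN against MockDN and filled symbols for called values. Called genes lie on both sides of zero in Foxp3UP, with Slc29a2 at -1.37 and Ggh at 0.70, and none is called in Foxp3DN.

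Among 8 transcription factors and kinases known to act on these genes, Myc fell in Foxp3UP, from 572 ± 155 to 322 ± 70.5 CPM (log2 fold change -0.83 ± 0.18 SE, edgeR adjusted p = 0.00684), though the libraries overlapped. Myc was not called when the 8 libraries were fitted alone (edgeR adjusted p = 0.0595), and its difference from the Foxp3DN effect, -0.89 ± 0.26 SE, did not pass (0.0838) but did with the block (0.000143) and by DESeq2. Atf4 stood at -0.20 (edgeR adjusted p = 0.509), Nrf1 at -0.06 and Mtor at -0.39 (0.0767), none of them called by edgeR, while DESeq2 called Mtor. With the block 4 of the 8 were called, where 25.3% of all genes were. Among them Myc (edgeR adjusted p = 5.89e-06) and Mtor (0.0126) were lower. Without the block the log2 fold changes of the 8 ran from -0.83 to 0.40, with 6 below zero and 2 above. Whether the levels of these regulators had a part in the falls was not tested. Of the 31 proliferation genes none was called in Foxp3UP by edgeR or DESeq2, none had an unadjusted p under 0.05, and the median was 0.07, with Mki67 at 73.1 ± 36.1 against 70.2 ± 45.6 CPM (0.06 ± 0.63 SE). With the replicate block 7 of the 31 were called, all higher, and 9 in the difference of the effects, where none was called without it. Over all genes the block called 25.3% in Foxp3UP and 12.7% in the difference.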

How the data were processed

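The members and gene lists were chosen with earlier results of these data known. The authors deposited whole-number read counts per gene for 16 libraries, made with STAR 2.6.1 and Subread 1.6.3 on mm10 per the submitters' processing notes. The counting options, strand use and annotation behind them were not given in the sources used here. Gene symbols came from GENCODE M21, which holds 55480 of the 55573 identifiers. Promoter sequences came from RefSeq (GRCm38.p6).

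From the deposited counts (9389477 to 13226590 a library), genes were kept by filterByExpr (minimum count 10), scaled by TMM and tested in edgeR 4.0.16 (R 4.3.3, limma 3.58.1) with the robust quasi-likelihood F test, a group term and all 16 libraries. Tests were two-sided, with Benjamini-Hochberg adjustment over 13711 genes and a threshold of 0.05. The SE is the log2 fold change divided by the square root of F. Deviations used log2 CPM with a prior count of 2, and RPKM used the deposited exonic lengths. The tests were checked on simulated counts. For Foxp3UP against MockUP, 25.6% of simulated 1.5-fold changes were recovered, 75.6% of 2-fold changes and 90% of 4-fold changes. For the difference of the Foxp3UP and Foxp3DN effects the shares were 14.1%, 52.6% and 70%. In these simulations 5 of 120 calls were false in the first comparison and 3 of 83 in the second. Most 1.5-fold changes were thus missed, and a gene that did not pass was not shown to be unchanged.

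Same-numbered libraries correlated in their deviations from their group means, at correlations of 0.213 to 0.630 between Foxp3UP and MockUP, 0.298 to 0.582 between Foxp3DN and MockDN and 0.107 to 0.326 between the controls. Every such pair was over 0.1, the rule for taking the numbers as pairs. Some unlike-numbered pairs within a replicate set passed it too. Foxp3UP 4 with MockUP 3 reached 0.364, above Foxp3UP 3 with MockUP 3 at 0.297, and Foxp3DN 3 with MockDN 4 reached 0.237. The rule thus cannot tell number pairs from the split of replicates 1 and 2 against 3 and 4. Between the controls the pairing was weak, since MockUP 1 with MockDN 2 reached 0.594 and MockUP 2 with MockDN 1 0.124. Each Foxp3 library and its same-numbered control also carry adjacent sample numbers in the titles. As a mix of Foxp3UP and Mock cells was given to mice, such pairs may share an animal, which the labels do not state. The main design has no block and treats the libraries as independent, so the blocked values are given where they change a call.

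Named genes were every member, those called and the one with the largest log2 fold change of each sub-pathway being given library by library, and up to 4 called genes of each other list with the smallest adjusted p. Nrf1, Atf4 and Mtor were named after their values were seen. Alternatives were RLE scaling, library totals, no filter, a stricter filter (1 CPM in 4 libraries), DESeq2 1.42.0, the 8 libraries compared alone, the replicate block, each library left out, each replicate set alone and, added after seeing the data, replicate sets as terms.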

Additional observations from a re-analysis of the deposited data

Results flagged for a closer look

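Of 148 groups of 4 libraries (37 genes in 4 groups), 11 held a library farther from the other 3 than a gap test at the 95% level allows, where chance alone flags about 5 in 100. The high ones were Ctps in Foxp3UP 4 at 68.6 CPM, Shmt1 in MockUP 4 at 96.3 CPM, Rpe in Foxp3DN 4 at 81.7 CPM and Rpe in MockDN 2 at 88.6 CPM. The low ones were Prps1 in MockDN 2 at 116 CPM, Ppat in Foxp3DN 2 at 69.4 CPM, Impdh1 in MockUP 1 at 201 CPM, Ctps in MockUP 1 at 89.7 CPM, Mthfd1l in MockDN 4 at 76.5 CPM, Taldo1 in MockUP 2 at 128 CPM and Taldo1 in Foxp3DN 1 at 187 CPM. A group can meet this test with small gaps: Ppat in Foxp3DN ranged only from 69.4 to 70.8 CPM.

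By a direct test, the effect in Foxp3UP differed from that in Foxp3DN for 6 of the 37 genes, where 1.83% of all genes were called. These were Ppat (-0.70 on the log2 scale), Gart (-0.70), Ctps (-0.77), Shmt1 (-0.74), Shmt2 (-0.64) and Mthfd1 (-0.66). Outside the 37 genes Adk (-0.57) was called. The calls of Shmt1, Shmt2, Mthfd1 and Adk were lost with certain single libraries left out, whereas those of Ppat, Gart and Ctps held. None of these calls held in replicates 1 and 2 alone.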

How the results depend on the processing

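The count of 13 genes called in Foxp3UP was 8 when the 8 libraries compared were fitted alone, 20 with the replicate block, 9 to 17 when 1 library was left out, 0 in replicates 1 and 2 alone and 21 in replicates 3 and 4 alone. The 6 calls in the difference became 13 with the block, 3 to 7 with 1 library left out, 0 in replicates 1 and 2 alone and 16 in replicates 3 and 4 alone. No alternative gave a call among the 37 in Foxp3DN or between the controls. The block changed no other call among the 37 than those given with the results. By at least 1 SE, signs turned for Psph (-0.0079 to 0.208 with 1 library left out, the lowest without MockUP 2, and -0.047 in replicates 3 and 4 alone), Pgls (-0.13 to 0.127, the lowest without MockUP 2, and -0.19), Nme1 (0.039 in replicates 1 and 2 alone), Dtymk (-0.22) and Rpe (-0.14) in replicates 3 and 4 alone. By less than 1 SE they also turned with 1 library left out for Dtymk (-0.16 to 0.14) and Rpe (-0.04 to 0.10), both lowest without MockUP 2, and for Rrm1 (-0.40 to 0.37), Rrm2 (-0.23 to 0.72), Tyms (-0.09 to 0.58), Tk1 (-0.07 to 0.70), Rpia (-0.11 to 0.04), Pgd (-0.06 to 0.04) and Gmps (-0.15 to 0.0051), none of which was called in these fits. The same held with library totals for Dtymk (-0.03) and Pgls (-0.02), with the compared libraries alone for Dtymk (-0.0066) and in replicates 3 and 4 alone for Pgd (0.07). The cause was not tested. Without a filter on low counts Adsl, Cad (0.0626 as edgeR adjusted p) and Impdh2 lost their calls.

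In Foxp3UP, 1654 of all genes tested were called. This became 658 with the compared libraries alone, 3475 with the block, 1064 without Foxp3UP 1, 1097 without Foxp3UP 3, 31 in replicates 1 and 2 alone and 3025 in replicates 3 and 4 alone. For the difference, 251 became 666 with DESeq2, 1739 with the block, 99 to 518 with 1 library left out, and 2 and 1688 in the replicate sets alone. DESeq2 called 10 genes between the controls where edgeR called 1. The 13 calls among neighbouring genes became 29 with the block, 6 with the compared libraries alone, and 0 and 26 in the replicate sets alone. Rpia (22 to 51 counts) and Pfas (82 to 305) have the fewest counts behind them.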

Other observations

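Rrm2b, the ribonucleotide reductase subunit used outside S phase, was singled out after its values were seen. It stood at 14.5 ± 0.736 CPM in Foxp3UP and 11.6 ± 1.24 CPM in MockUP, and at 10.3 ± 0.906 CPM in Foxp3DN and 12.3 ± 1.06 CPM in MockDN (mean ± SD, n = 4). Every Foxp3UP library was above every MockUP library, with a log2 fold change of 0.32 ± 0.12 SE (edgeR adjusted p = 0.0946), and the Foxp3DN value was -0.26 ± 0.12 SE. The difference of the effects, 0.57 ± 0.17 SE, did not pass the test (edgeR adjusted p = 0.0896) and did with the replicate block (0.0269) and by DESeq2. The other genes of ribonucleotide reductase, Rrm1 and Rrm2, had SEs several times larger.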
